A study of Drosophila melanogaster with 8 samples.

Results

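The aminoacyl-tRNA synthetases are the enzymes that join each amino acid to its tRNA, the step that sets the genetic code before the ribosome reads it. Most amino acids are served by a pair of nuclear genes, 1 for the enzyme of the cytoplasm and 1 for the enzyme that is imported into mitochondria, which translate their own small set of respiratory proteins. The enzymes fall into an older split of class I and class II, which differ in the fold of the catalytic domain. The genes described here were those whose annotated symbol was 1 or 2 amino acid codes followed by RS, with or without the suffix -m for the mitochondrial form. This rule used the symbols only and gave 33 of 13945 protein-coding genes, 18 cytoplasmic and 15 mitochondrial. Among them GluProRS joins the enzymes for glutamate and proline in 1 protein. The subunits of the cytoplasmic phenylalanine enzyme, alpha-PheRS and beta-PheRS, do not meet the rule and are given with the partner genes at the end.

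KDM5, a histone demethylase that acts on methylated H3K4, was profiled by Targeted DamID (TaDa), in which a protein fused to the bacterial Dam methylase marks GATC sites near the places it binds. Larvae of the third instar, at the wandering stage, carried tub-Gal80[ts] and spok-Gal4, which drives transgenes in the prothoracic gland, the source of ecdysone, together with UAS-LT3-damkdm5 (Dam:KDM5) or UAS-LT3-dam (Dam alone, the control). Each genotype had 4 samples of 100 pooled larvae, raised after 24 h of egg laying for 5 days at 18°C and 2 days at 29°C, a temperature that inactivates Gal80[ts] and so frees Gal4. DNA was taken from whole larvae, so the cell type rests on the driver, and the files used here hold no expression against which it could be checked. The authors averaged the 4 profiles, so no value below carries a replicate error, and genes were described by counts and medians without a test. The files used here do not give the depth reached by each sample. The binding score is the authors' value for a peak relative to Dam alone. Its log base is not stated, so scores are given as levels and differences and never as folds. A gene was counted as bound when it was on the authors' list of genes that overlap peaks, with the score of its highest peak.

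KDM5 peaks lay over 24 of the 33 synthetase genes (72.7%), while 5364 of 13945 protein-coding genes were bound (38.5%). The cytoplasmic forms were bound in 16 of 18 cases (88.9%) and the mitochondrial forms in 8 of 15 (53.3%). Bound synthetase genes did not score higher than other bound genes as a group, with a median of 4.755 (2.22 to 8.3) beside 4.75 over all bound genes. The forms fell on opposite sides of that value. The bound cytoplasmic genes had a median score of 5.735 (quartiles 4.08 and 7.055) and the bound mitochondrial genes one of 3.66 (quartiles 3.39 and 4.35). The ranges overlapped, from 2.32 to 8.3 and from 2.22 to 5.29, and 10 of 16 cytoplasmic scores were above the highest mitochondrial one. The genes are not replicates of a profile, and the difference between forms was not tested.

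**Figure D1:**
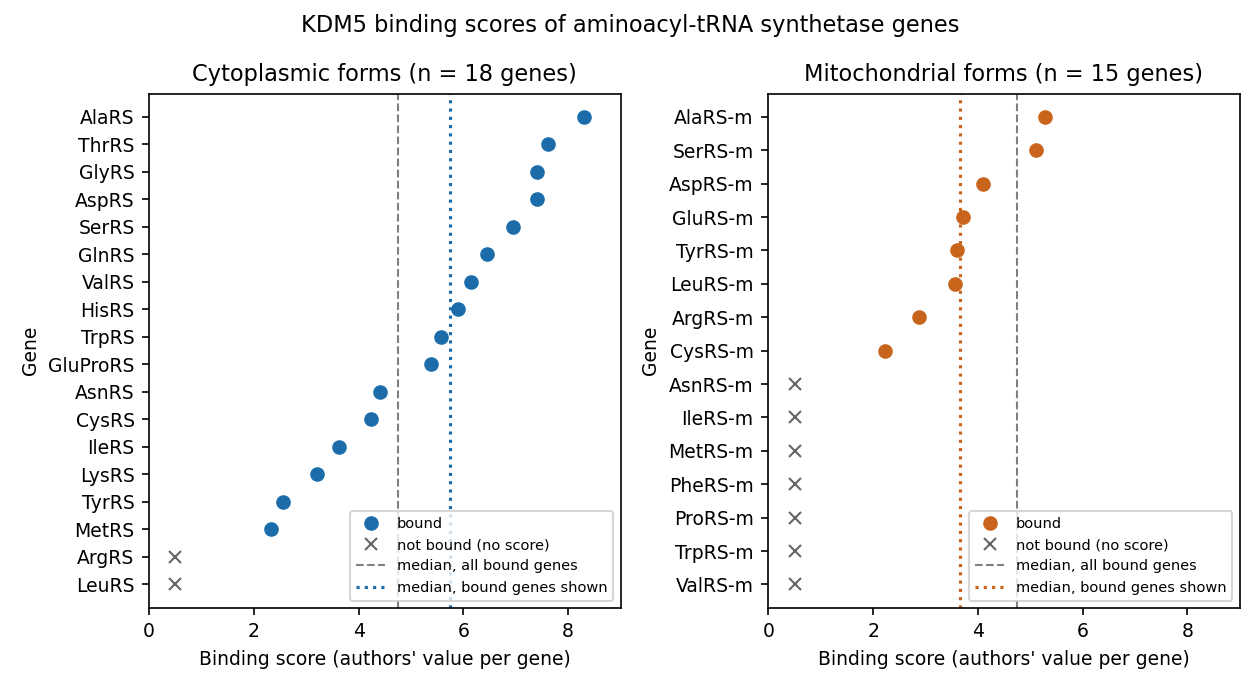
Binding score of each synthetase gene, cytoplasmic forms on the left and mitochondrial forms on the right, with 1 point per bound gene and a cross at the left for each gene without a score. Dashed lines mark the median of all bound protein-coding genes (4.75) and dotted lines the median of the bound genes in the panel (5.735 and 3.66).

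The genomic sequence under these results is shown for 7 genes, taken from the RefSeq genome (build dm6, Release 6). GlyRS is shown because its peak is the narrowest over any synthetase gene. TaDa reads out only at GATC sites, so peaks begin and end at such sites. The plus strand of 3L:15095715-15096003 is the peak extended to whole GATC sites at both edges, with its 4 GATC sites in capitals. These bound 3 fragments that lay wholly in coding sequence.

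GlyRS peak: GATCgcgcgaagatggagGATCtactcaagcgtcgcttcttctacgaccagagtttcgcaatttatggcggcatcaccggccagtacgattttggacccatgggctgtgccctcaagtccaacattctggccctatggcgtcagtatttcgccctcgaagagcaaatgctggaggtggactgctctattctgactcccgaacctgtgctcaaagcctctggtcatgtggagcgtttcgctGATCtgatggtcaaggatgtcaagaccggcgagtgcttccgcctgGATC

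The other sequences are promoters of 300 bases, from 250 before to 50 from the annotated start onwards, read in the direction of the gene. They are the promoters on the arms 2L, 3L, 3R and X of genes with a DRE (TATCGATA, the element of the factor DREF) or an E-box (CACGTG, the site of Myc and its partners), 2 of 6 motifs searched. The first 5 lay wholly under a peak and the last, ArgRS, had no base under a peak. Capitals mark the DRE in AlaRS (2L:8381539-8381838, minus strand), IleRS (3L:22288415-22288714, plus strand), TrpRS (3R:9266855-9267154, minus strand) and ArgRS (X:15844096-15844395, minus strand). They mark the E-box in LeuRS-m (3L:4825603-4825902, plus strand), and in GlnRS (3R:25265672-25265971, minus strand) the E-box and GGTCACAC, the core of the motif of the factor M1BP.

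AlaRS promoter: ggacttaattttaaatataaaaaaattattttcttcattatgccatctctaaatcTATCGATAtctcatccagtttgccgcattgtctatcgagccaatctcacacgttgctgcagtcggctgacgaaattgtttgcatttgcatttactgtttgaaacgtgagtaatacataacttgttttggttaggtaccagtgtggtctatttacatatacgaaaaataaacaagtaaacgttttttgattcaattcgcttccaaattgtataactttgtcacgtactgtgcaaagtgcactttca

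IleRS promoter: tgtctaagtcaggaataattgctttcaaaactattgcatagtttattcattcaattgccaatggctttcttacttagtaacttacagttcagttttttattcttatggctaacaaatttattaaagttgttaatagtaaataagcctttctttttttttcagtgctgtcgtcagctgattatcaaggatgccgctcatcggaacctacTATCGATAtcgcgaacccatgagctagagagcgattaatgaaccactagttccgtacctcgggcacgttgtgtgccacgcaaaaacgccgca

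TrpRS promoter: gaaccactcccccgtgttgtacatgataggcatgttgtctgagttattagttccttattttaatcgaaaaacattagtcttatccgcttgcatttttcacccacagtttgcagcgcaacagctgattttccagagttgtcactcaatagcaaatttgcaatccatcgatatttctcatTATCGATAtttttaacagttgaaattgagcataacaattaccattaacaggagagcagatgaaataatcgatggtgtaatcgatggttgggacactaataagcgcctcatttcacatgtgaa

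GlnRS promoter: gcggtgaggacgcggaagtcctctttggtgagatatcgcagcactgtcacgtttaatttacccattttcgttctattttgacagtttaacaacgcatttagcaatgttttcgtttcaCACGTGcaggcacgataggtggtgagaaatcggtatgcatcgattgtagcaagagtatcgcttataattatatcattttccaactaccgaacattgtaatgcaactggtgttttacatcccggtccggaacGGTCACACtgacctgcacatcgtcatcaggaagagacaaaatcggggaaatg

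LeuRS-m promoter: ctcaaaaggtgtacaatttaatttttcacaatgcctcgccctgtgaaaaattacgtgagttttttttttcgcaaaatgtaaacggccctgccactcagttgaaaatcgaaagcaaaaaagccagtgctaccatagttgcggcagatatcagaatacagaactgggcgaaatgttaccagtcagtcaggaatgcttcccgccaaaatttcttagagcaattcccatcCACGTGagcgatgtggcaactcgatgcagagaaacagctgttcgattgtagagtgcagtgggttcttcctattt

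ArgRS promoter: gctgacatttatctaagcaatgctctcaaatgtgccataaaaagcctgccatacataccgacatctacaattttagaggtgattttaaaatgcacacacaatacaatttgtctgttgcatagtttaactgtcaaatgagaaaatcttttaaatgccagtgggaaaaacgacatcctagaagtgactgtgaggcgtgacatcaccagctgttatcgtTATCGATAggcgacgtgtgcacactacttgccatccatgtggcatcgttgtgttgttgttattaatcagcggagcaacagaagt

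Searched on both strands, 23 of the 33 promoters held none of the 6 motifs (69.7%), beside 76.5% of all promoters. Of the 24 bound synthetase genes 18 held none (75%), beside 67.5% of all bound genes. The shares by motif below are of all 33 synthetase promoters, bound or not. Each motif was in 5 synthetase promoters or fewer, and its relation to binding was not tested. The DRE occurred in 5 (15.2%), beside 8.94% of all 13945 promoters and 14% of those of the bound genes. Of these 5, AlaRS, IleRS and TrpRS were bound (3 of the 24 bound synthetase genes), and ArgRS and PheRS-m were not. Its first base lay at -195 in AlaRS, -72 in TrpRS, -42 in IleRS and -34 in ArgRS, where -1 is the base before the start, and at 1 in PheRS-m. The E-box was in GlnRS at -133 and in LeuRS-m at -24, both bound, which is 6.06% of the promoters beside 4.26% of all and 4.68% of bound ones. GGTCACAC was in the bound GlnRS at -2 and in the unbound AsnRS-m and ProRS-m, 9.09% beside 7.54% of all promoters and 12.8% of bound ones. The response element of ATF4, TGATGNAA, was in CysRS alone (3.03% beside 3.99% of all and of bound ones). CCGGAAGT, a site of Ets factors, and GCGCATGC, part of the NRF1 site, were in none, in 0.373% and 1.06% of all promoters, and in 0.261% and 0.913% of bound ones. GlnRS alone held 2 different motifs, which did not overlap, and a missing motif says only that the letters are not in this window.

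Cytoplasmic forms were bound for most amino acids. The highest score was that of AlaRS (8.3), which ranked 163 among 5364 bound genes. Its peak (2L, 8381272 to 8382645, FDR 5.08e-14) covered the start and ran into the neighbour CG13392, and a lower peak of 2.38 lay in the coding sequence (2L, 8378909 to 8380054). ThrRS scored 7.62, GlyRS 7.41 (3L, 15095716 to 15096001), AspRS 7.4, SerRS 6.94 (2L, 3036342 to 3036960), GlnRS 6.45 and ValRS 6.14. All of these but ValRS were above 6.22, the upper quartile of all bound genes. HisRS (5.89), TrpRS (5.58) and GluProRS (5.38) were also above the median of all bound genes. Below it were AsnRS (4.4), CysRS (4.23), IleRS (3.62), LysRS (3.2), TyrRS (2.56) and MetRS (2.32). ArgRS and LeuRS were not on the list.

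Mitochondrial forms were bound less widely and at lower scores. AlaRS-m scored 5.29 (3L, 5146262 to 5146770, FDR 0.00229), with the peak wholly inside the gene, and SerRS-m 5.11. They were the only mitochondrial forms above the median of all bound genes, and 0 of 8 were above the cytoplasmic median. AspRS-m scored 4.1 (2L, 16827153 to 16828653), GluRS-m 3.72, TyrRS-m 3.6 (2R, 24781507 to 24783048), LeuRS-m 3.56 (3L, 4825371 to 4826858), ArgRS-m 2.88 (3R, 7885129 to 7888316) and CysRS-m 2.22 (2R, 14158221 to 14159768). The TyrRS-m peak had an FDR of 0.00926, close to the authors' threshold of 0.01. The 7 unbound forms were AsnRS-m, IleRS-m, MetRS-m, PheRS-m, ProRS-m, TrpRS-m and ValRS-m.

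Pairs that serve the same amino acid were set side by side, 14 pairs with GluProRS entered for both Glu and Pro. Both genes were bound in 6 pairs, the cytoplasmic gene alone in 6, the mitochondrial gene alone in 2, and in no pair were both unbound. These counts depend on the definition of a bound gene. With each peak given to 1 gene, both were bound in 2 pairs, the cytoplasmic gene alone in 5, the mitochondrial gene alone in 4 and neither in 3. With peaks above the median score the counts were 2, 5, 0 and 7, and with an FDR of 0.001 or less 2, 10, 2 and 0, in the same order. With a peak within 1 kb of a start they were 8, 6, 0 and 0. Among the 6 pairs with both bound on the list, the cytoplasmic gene scored higher in 5. The values were 8.3 and 5.29 for alanine, 7.4 and 4.1 for aspartate, 4.23 and 2.22 for cysteine, 5.38 and 3.72 for glutamate, and 6.94 and 5.11 for serine, cytoplasmic form first. Tyrosine went the other way, with 2.56 for TyrRS and 3.6 for TyrRS-m. The TyrRS value comes from a peak over its 3′ end that also covers the start of GluRS-m and counts for both genes. The median difference was 1.92 score units (-1.04 to 3.3). The glutamate difference rests on a peak with 16 bp in GluRS-m, and with the peaks nearest a start the values were 2.58 for GluProRS and 2.56 for GluRS-m. The cytoplasmic gene was still the higher one in 5 of 6 pairs by those peaks, in glutamate by 0.02, with a median difference of 2.07. The cytoplasmic gene alone was bound for asparagine, isoleucine, methionine, proline, tryptophan and valine. The mitochondrial gene alone was bound for arginine and leucine on the list, and for neither with a peak within 1 kb of a start.

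**Figure D2:**
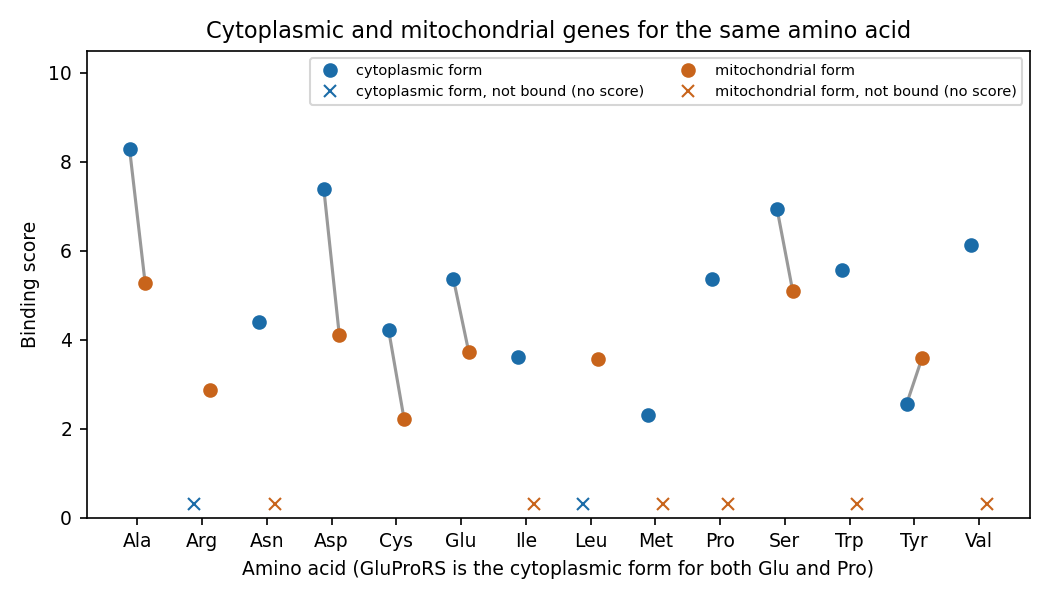
Binding scores of the cytoplasmic and the mitochondrial gene for each of 14 amino acids, joined by a line where both were bound, with crosses for genes without a score. The cytoplasmic point is the higher one in 5 of 6 joined pairs, and tyrosine is the exception.

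For glutamine, glycine, histidine, lysine and threonine the annotation held no gene with the suffix -m. Such genes can serve both compartments, as GlyRS is known to do in animals, while animal mitochondria charge their glutamine tRNA in another way, through an amidotransferase. These 5 genes were all bound, with scores of 6.45 for GlnRS, 7.41 for GlyRS, 5.89 for HisRS, 3.2 for LysRS and 7.62 for ThrRS, a median of 6.45. The 13 cytoplasmic genes that have a mitochondrial counterpart were bound in 11 cases, with a median of 5.38. Of all protein-coding genes 38.5% were bound.

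Scores also differed between the catalytic classes within each compartment. GluProRS holds an enzyme of each class and was left out. All 8 cytoplasmic class II genes were bound, with a median score of 7.17 (3.2 to 8.3), and 7 of 9 class I genes, with a median of 4.23 (2.32 to 6.45). The class II genes AlaRS, ThrRS, GlyRS, AspRS and SerRS took the top places, and the class I genes TyrRS and MetRS the lowest. The bound mitochondrial class II genes, AlaRS-m, SerRS-m and AspRS-m, were 3 of 6 and had a median of 5.11, and 5 of 9 class I genes had one of 3.56 (2.22 to 3.72). In mammals the enzymes for Glu and Pro, Ile, Leu, Met, Gln, Arg, Lys and Asp are held in 1 multi-synthetase complex. The fly genes for these were bound in 6 of 8 cases, with a median of 4.5, and the other cytoplasmic genes in 10 of 10, with a median of 6.015. These counts stand beside 38.5% bound among all protein-coding genes and 46.6% among those within the length range of the synthetases. The groupings by class and by complex overlap and cannot be told apart here. Of the complex genes, IleRS, LeuRS, MetRS, GlnRS and ArgRS are class I, and LysRS and AspRS class II. The unbound cytoplasmic genes, LeuRS and ArgRS, are class I genes of the complex. Both groupings were made after the scores had been seen and were not tested.

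The position of the peaks was not used by the rule. The 33 genes carried 31 peaks, 1 of them shared by TyrRS and GluRS-m, with widths from 286 to 4887 bp and a median of 1501 bp (1456 bp over all 4931 peaks). The centre of the highest peak lay a median of 878 bp from the nearest annotated start, beside 774 bp for all bound genes. It lay downstream of that start in 19 of 24 genes (79.2%, beside 76.8%). The highest peak covered a start in 8 of 24 genes (33.3%, beside 46.8%), and some peak did so in 14 (58.3%, beside 52%). It reached the 3′ end without covering a start in 9 of 24 (37.5%, beside 20.6%). Among bound ribosomal protein genes that share was 56.7% for the cytoplasmic ones (38 of 67) and 34.1% for the mitochondrial ones (15 of 44).

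**Figure D3:**
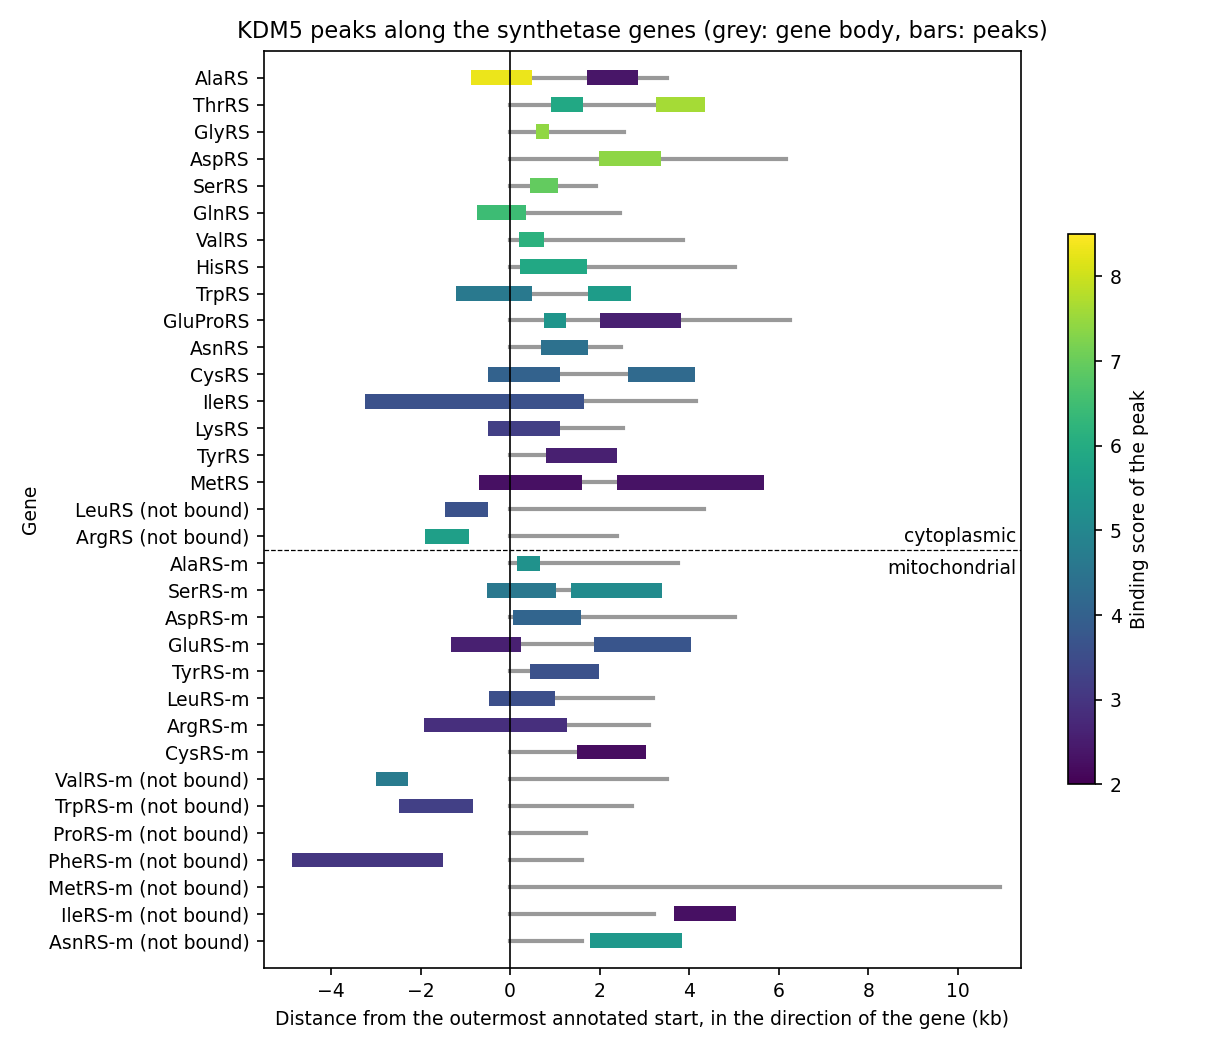
Peaks (bars, coloured by binding score) along each synthetase gene (grey line), by distance in kb from the outermost annotated start in the direction of the gene, including the nearest peak of unbound genes where it lies within 3 kb. A peak covers a start in 14 of 24 bound genes, and in 9 the highest peak lies at the 3′ end, as in ThrRS, TrpRS, CysRS and GluRS-m.

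Several genes had their peak just inside the gene. Besides GlyRS (centre 716 bp from the start), these were SerRS (612 bp), AlaRS-m (418 bp) and ValRS (390 bp, 2R, 13199054 to 13199607), whose peaks of 286 to 619 bp overlapped no other protein-coding gene. The peak of AsnRS (2L, 19130205 to 19131256) was centred 1224 bp from the start and was wholly coding. GluProRS held 2 peaks inside the gene, of 5.38 (3R, 23957152 to 23957640) and 2.58 (3R, 23954572 to 23956381), the second over an internal annotated start. The AspRS peak (2R, 12879000 to 12880372) also covered an internal start and was mostly intronic, with 1168 of 1373 bp in introns, and it overlapped Nmda1. The HisRS peak (X, 18515639 to 18517140) was intronic in 846 of 1502 bp and overlapped Bx, which encodes a LIM-domain protein. Over all synthetase peaks, 83.9% of the bases inside these genes were exonic and 66.8% coding. The whole bodies of the 33 genes gave 81.6% and 67.5%, and the peaks of all bound genes 48.3% and 29.3%.

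Other peaks ran past an end of a synthetase gene, often into a neighbour. In 4 of 24 bound genes the highest peak had 200 bp or less in the gene, and each of these held a second peak. The 7.62 peak of ThrRS (2L, 12107001 to 12108099) had 170 of its 1099 bp in the 3′ end of ThrRS and also overlapped Rab6, a GTPase of Golgi traffic, while a peak of 5.91 lay inside ThrRS (2L, 12104666 to 12105372). TrpRS had 129 bp under its 5.58 peak (3R, 9264202 to 9265155), which overlapped no other protein-coding gene. A peak of 4.62 covered the TrpRS start (3R, 9266417 to 9268109) and also overlapped Vps16A. CysRS had 130 bp under the 4.23 peak shared with sotv, which acts in heparan sulfate synthesis (2R, 16145777 to 16147269). The peak of 4.02 at the CysRS start (2R, 16142659 to 16144259) also overlapped CG30094. GluRS-m had 16 bp under the 3.72 peak of Serinc (3L, 16413141 to 16415307). Its other peak, of 2.56 (3L, 16416923 to 16418490), covered the GluRS-m start and the end of TyrRS, and was the only peak of TyrRS. In SerRS-m a peak of 4.6 covered the start (3R, 15340156 to 15341692) and the 5.11 peak lay at the 3′ end with Nagk and Surf4 (3R, 15342033 to 15344048). MetRS held similar scores at both ends, 2.32 at the 3′ end (2R, 18844937 to 18848218) and 2.26 at the start (2R, 18848988 to 18851300). When each gene was given the score of the peak nearest its start, the medians were 5.255 for cytoplasmic and 3.58 for mitochondrial forms, and 4.61 over all bound genes.

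Many synthetase genes start close to a gene on the opposite strand. A divergent neighbour had its outermost start within 500 bp in 20 of 33 cases (60.6%), beside 25% of all protein-coding genes. These were 13 of 18 cytoplasmic and 7 of 15 mitochondrial genes. The trait is not particular to synthetases, since 69.9% of mitochondrial ribosomal protein genes had such a neighbour (51 of 73). Of the cytoplasmic ribosomal protein genes 36.4% did (32 of 88). Peaks at such promoters cannot be assigned to 1 of the partners. Examples are the peak of GlnRS (3R, 25265360 to 25266471), shared with the kinase gene RIOK2 at 123 bp, that of LysRS (X, 9607768 to 9609377) with Hecw at 62 bp, that of IleRS (3L, 22285427 to 22290313) with Hem at 470 bp, and that of LeuRS-m with Dhc64C, the dynein heavy chain, at 166 bp. A total of 16 of 24 highest peaks overlapped another protein-coding gene (66.7%, beside 59.6%).

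Unbound genes differed in how far they lay from a peak. Near the start, peaks lay outside LeuRS (498 bp away, score 3.64, over CG17593), TrpRS-m (827 bp, 3.22, over CG7430) and ArgRS (929 bp, 5.64, over CG8578). CG8578 and CG17593 are also the divergent neighbours of ArgRS and LeuRS. AsnRS-m lay 172 bp and IleRS-m 459 bp from a peak past their 3′ ends, with scores of 5.46 and 2.26. PheRS-m lay 1499 bp from a peak, ValRS-m 2285 bp, ProRS-m 12560 bp and MetRS-m 24757 bp. GATC sites were present at each, with 3 to 13 sites within 1 kb of the start of the 9 unbound genes, beside a median of 6 over all protein-coding genes.

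The share of bound genes was set beside that of all protein-coding genes under other definitions of binding. By overlap of the gene body with a peak the synthetase count remained 24 (38.7% of all genes), and with an overlap of 200 bp or more it was also 24 (36.9%). With a peak within 1 kb of an annotated start it was 26 (39.9% of all genes), all 18 cytoplasmic and 8 mitochondrial genes. ArgRS, LeuRS and TrpRS-m then entered and CysRS-m left. With each peak given to the 1 gene whose start lay nearest its centre, 16 were bound (29% of all genes), 10 cytoplasmic and 6 mitochondrial. AspRS, GlnRS, IleRS, SerRS, TrpRS, TyrRS, ArgRS-m and CysRS-m lost their peaks to neighbours. With peaks above the median score 12 were bound (20.7% of all genes), 10 of 18 cytoplasmic and 2 of 15 mitochondrial, the latter 13.3% and under the share of all genes. With peaks of an FDR of 0.001 or less 18 were bound (33.2% of all genes), 14 cytoplasmic and 4 mitochondrial, the latter 26.7%. Gene length bears on such shares. Genes within the length range of the synthetases, 1595 to 10949 bp, were bound in 46.6% of cases.

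**Figure D4:**
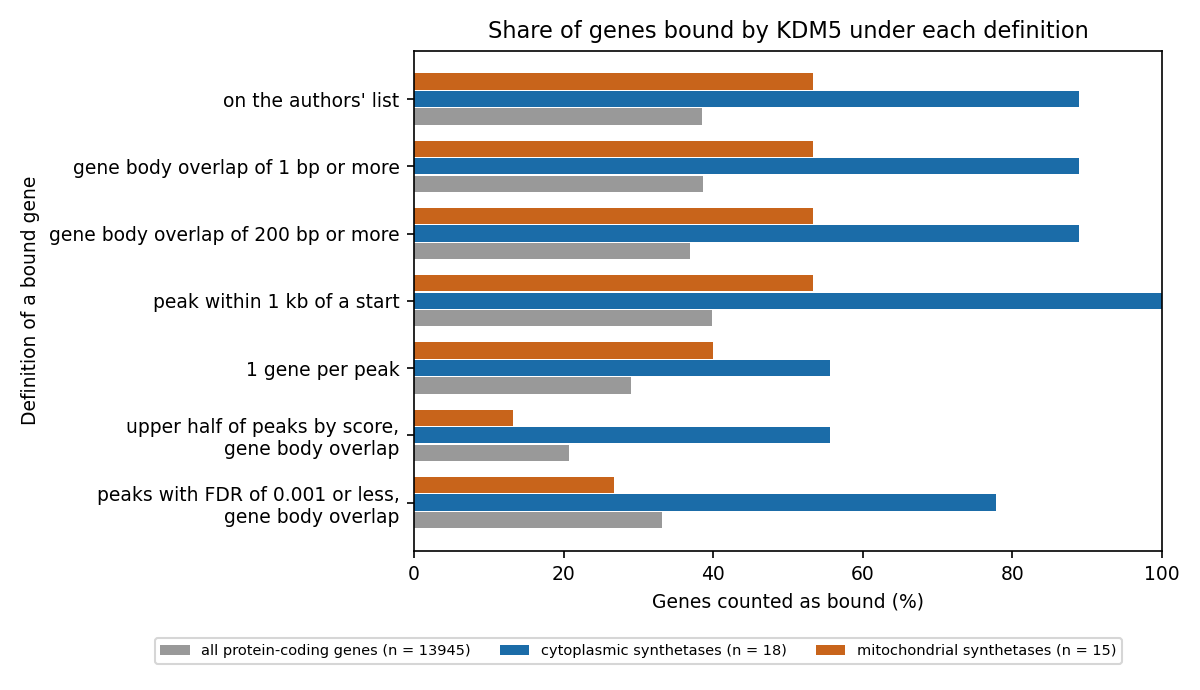
Percentage of genes counted as bound under 7 definitions, for all 13945 protein-coding genes (grey), 18 cytoplasmic (blue) and 15 mitochondrial synthetase genes (orange). The blue bar is the longest under each definition, and the orange bar is shorter than the grey one with peaks above the median score and with an FDR of 0.001 or less.

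Ribosomal protein genes, the other large set of genes for translation in both compartments, showed the same order of forms. Cytoplasmic ribosomal proteins (RpL and RpS symbols with a number) were bound in 67 of 88 cases (76.1%) with a median score of 6.05, and mitochondrial ones in 44 of 73 (60.3%) with a median of 4.64. The synthetase medians, 5.735 and 3.66, were the lower ones in each compartment. Of the bound cytoplasmic ribosomal genes 26.9% had their highest peak over a start, beside 31.2% of the bound cytoplasmic synthetase genes. Of the bound mitochondrial ribosomal genes 59.1% did, beside 37.5% of the bound mitochondrial synthetase genes. Ribosomal genes, bound or not, are shorter, with medians of 1325.5 and 909 bp against 2760 bp for the synthetases, and none of these differences was tested.

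Genes that work with the synthetases were taken from a list of 20, of which 13 were bound (65%, beside 38.5% of all genes) with a median score of 4.83. The cytoplasmic phenylalanine enzyme was bound at both subunits, alpha-PheRS at 4.13 (X, 8144008 to 8145484) and beta-PheRS at 1.73 (3R, 24249470 to 24251683), under a peak that also overlapped mask. Of the scaffold proteins that hold the mammalian complex together, AIMP1 scored 8.9, above every synthetase gene, AIMP2 3.72, and AIMP3 was not bound. The AIMP1 peak (2R, 8928069 to 8928936) covered the start at 8928105, lay mostly outside AIMP1 and also overlapped PAN2. The amidotransferase subunits GatA and GatC scored 5.89 and 5.96, and GatB was not bound. Elongation factor 1 alpha, which carries charged tRNA to the ribosome, scored 8.66 at eEF1alpha1 and 3.44 at eEF1alpha2, and its mitochondrial counterparts mEFTu1 and mEFTu2 were not bound. Among genes that answer amino acid shortage, crc, the fly ATF4, scored 6.4, AsnS, which makes asparagine, 4.83, and the kinase gene Gcn2, which senses uncharged tRNA, was not bound. Dtd, which removes D-amino acids from tRNA, scored 5, the selenocysteine factor eEFSec 3.89, and the tRNA methyltransferase gene Mt2 3.23. The tRNA methyltransferase gene Nsun2 and Slimp, a mitochondrial relative of the serine enzyme, were not bound. The peaks of AIMP2, GatA, GatC, Dtd, crc, eEFSec, Mt2 and AsnS also overlapped other protein-coding genes and cannot be assigned to 1 gene. Those of alpha-PheRS, eEF1alpha1 and eEF1alpha2 overlapped no other.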

How the data were processed

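TaDa of KDM5 was carried out by the authors in 4 Dam:KDM5 and 4 Dam alone samples. The authors aligned reads to dm6, computed profiles with damidseq_pipeline, averaged them and called peaks with find_peaks (FDR of 0.01, min_quant of 0.9). The sources used here give no version of either tool. The deposited binding score per peak and per gene comes from this average, while its log base and how it summarises the peak are not stated. All 24 scores of listed synthetase genes equalled their highest peak. Both edges of all 4931 peaks fell at GATC sites of the RefSeq genome (Release 6).

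Of 5815 listed FlyBase IDs, 5799 matched the Ensembl release 115 annotation directly, 11 through a symbol or an older name, and 5 had no match. All 24 listed synthetase genes stood there under older names (Aats-ala for AlaRS). Genes without the suffix -m are called cytoplasmic. Starts are all annotated transcript starts. Promoters were read from the genome at the start of the Ensembl canonical transcript. Counts, overlaps and distances were computed in Python 3.11.15 with pandas 2.3.3 and checked on simulated data. No test was run, since genes of 1 averaged profile are not replicates. Alternatives covered 6 other definitions of a bound gene, the score of the peak nearest the start, the peak edge and single-gene enzymes. Other definitions for the pair counts, and pair differences by the peak nearest a start, were added after seeing the data. Every synthetase gene is named. The genes and lists were chosen with earlier results of these data known.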

Additional observations from a re-analysis of the deposited data

How the results depend on the processing

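The files used here hold 1 averaged profile, so leaving out single samples was not possible. No paired analysis was possible because no column carries a replicate number. Counts of bound genes stayed within 1.5 times of the value on the authors' list, except in 5 cases. With peaks above the median score, 12 synthetase genes in all were bound after 24, 10 cytoplasmic after 16 and 2 mitochondrial after 8. With 1 gene per peak, 10 cytoplasmic genes were bound after 16, and with an FDR of 0.001 or less 4 mitochondrial genes after 8. With the score of the peak nearest the start, the median was 4.25 over all bound synthetase genes (4.755 before), 5.255 for cytoplasmic (5.735) and 3.58 for mitochondrial forms (3.66). Without the 5 genes that have no -m counterpart, the cytoplasmic median was 5.38. The highest peak lay a median of 377.5 bp from the nearest start by its edge and 878 bp by its centre. The pairs with both genes bound were 6 on the list and 8 with a peak within 1 kb of a start. They were 2 with 1 gene per peak, with peaks above the median score or with an FDR of 0.001 or less. The share of all protein-coding genes bound also moved, from 38.5% on the list to 39.9%, 29%, 20.7% and 33.2%, in that order. The median difference within pairs was 2.07 by the peak nearest the start and 1.92 before. These pair alternatives, other than the 1 kb window, were chosen after seeing the data. The reach of a TaDa peak is limited by the spacing of GATC sites, and peaks shared with neighbours cannot be assigned to 1 gene.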
